A study of Mus musculus with 12 samples.

Results

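The transcripts examined here encode smooth muscle actin and its contractile partners, and were followed across 4 groups of cultured proximal tubule (PT) cells. They comprise 9 of the 25514 genes counted: Acta2, Actg2, Tagln, Cnn1, Cnn2, Myl9, Tpm1, Tpm2 and Cald1. The set was assembled by gene symbol after Acta2 had been seen to be higher in TβRII-/- cells, so the genotype values below describe what led to the choice, with no p value given for a member. The cells came from the kidneys of male mice that carried floxed Tgfbr2 alleles, the gene of TβRII, together with H2ts6, the Immorto-mouse transgene for a temperature-sensitive T antigen. All 4 groups shared this background. The cells were grown at 33 °C with interferon gamma and moved to 37 °C for 5 days before the experiment. The TβRII flox/flox PT cells kept the receptor gene, and TβRII-/- PT cells (the short names below leave out PT) were obtained from such cells by adenoviral Cre in vitro. Each genotype was sequenced in its normal culture medium and after 24 h of H2O2 in medium without serum, with 3 libraries per group. The dose of H2O2 reads 200 mM in the sample labels and 200 μM in the methods, which also describe serum starvation beforehand. H2O2 and serum withdrawal therefore always changed together, and their effects cannot be told apart. Nothing in the labels says that the libraries came from separate Cre treatments, so the spread between them may be only technical. Loss of TβRII and any other difference between the lines cannot be told apart.

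Contraction in smooth muscle rests on thin filaments of actin, on myosin that pulls on them once its regulatory light chain is phosphorylated, and on tropomyosin, caldesmon, calponin and transgelin that lie along the filaments. Many of these genes are driven by serum response factor (SRF) bound to a sequence called the CArG box, with myocardin or the myocardin-related factors as coactivators, and several respond to TGF-β. Acta2 is also the usual marker of myofibroblasts in the injured kidney, whereas healthy tubule epithelium has little of it.

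Promoters are shown because SRF sites in the proximal promoter are the textbook link between these genes. The RefSeq promoter table for GRCm38.p6 held windows for 7 of the 9 members (Acta2, Cnn1, Cnn2, Myl9, Tpm1, Tpm2 and Cald1). Each window is the 250 bases before a transcription start, read 5′ to 3′ on the strand of the gene, with matches to the motifs searched in capitals. The motifs were the CArG box, taken as CC, then 6 bases that are all A or T, then GG; a looser form of it with at most 1 G or C among those 6 bases; CAGACA, a Smad element; and CATTCC, the MCAT element of TEAD factors. Both strands were read, so TGTCTG and GGAATG in capitals are the last 2 motifs in reverse, and the strict CArG box is by construction part of the looser class. Acta2 (chr19:34255374-34255623, minus strand) and Myl9 (chr2:156775214-156775463, plus strand) were the more abundant members that were higher in TβRII-/- cells. Tpm1 (chr9:67049214-67049463, minus strand) was lower there, and Cnn2 (chr10:79988350-79988599, plus strand) was nearly equal in untreated cells.
Acta2: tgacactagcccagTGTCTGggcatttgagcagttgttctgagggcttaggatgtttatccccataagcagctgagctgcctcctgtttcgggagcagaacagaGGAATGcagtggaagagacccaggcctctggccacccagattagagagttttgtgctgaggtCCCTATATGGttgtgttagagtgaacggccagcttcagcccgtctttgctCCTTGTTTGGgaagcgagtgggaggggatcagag
Myl9: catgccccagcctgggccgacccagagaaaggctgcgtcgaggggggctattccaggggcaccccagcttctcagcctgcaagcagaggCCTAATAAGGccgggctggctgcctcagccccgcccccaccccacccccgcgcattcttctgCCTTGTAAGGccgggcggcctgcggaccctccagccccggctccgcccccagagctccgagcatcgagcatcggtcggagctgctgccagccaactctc
Tpm1: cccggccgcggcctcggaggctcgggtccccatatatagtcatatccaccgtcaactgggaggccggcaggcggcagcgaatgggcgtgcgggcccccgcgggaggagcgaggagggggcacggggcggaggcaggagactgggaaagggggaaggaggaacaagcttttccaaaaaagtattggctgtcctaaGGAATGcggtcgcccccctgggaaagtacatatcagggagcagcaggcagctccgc
Cnn2: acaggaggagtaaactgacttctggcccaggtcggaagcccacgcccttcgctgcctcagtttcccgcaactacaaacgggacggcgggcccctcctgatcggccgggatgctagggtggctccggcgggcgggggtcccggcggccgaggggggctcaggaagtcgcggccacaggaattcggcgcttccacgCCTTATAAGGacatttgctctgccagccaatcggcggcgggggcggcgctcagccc
Acta2 held 2 loose CArG matches, one from −84 to −75 and one from −34 to −25 relative to the start, and no strict one. Myl9 held a strict match from −161 to −152 and a loose one from −99 to −90, and Cnn2 a strict match from −56 to −47. None lay in the windows of Tpm1, Cnn1, Tpm2 or Cald1. Of 32851 mouse promoter windows of the same length, 1.47% held the strict motif and 8.59% the loose one. CAGACA, present in 17.1% of windows, was found in Acta2 (−236 to −231) and in 1 of the 2 Cald1 windows, and CATTCC, present in 12.6%, in Acta2, Tpm1 and the same Cald1 window. Among members without a CArG match in the window, Tpm1 and Cald1 were lower in untreated TβRII-/- cells and Tpm2 was nearly equal (log2 difference −0.07, standard error 0.27). Cnn1 was higher there (0.80, standard error 0.32) but not with H2O2 (−0.41, standard error 0.33).

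The libraries held between 15870155 and 20857618 counts on the representative transcripts of genes (median 17476242.5), and all values below are normalized counts for a library of 17351835 counts. Tgfbr2 itself ran from 7562 to 9248 normalized counts in untreated TβRII flox/flox cells and from 6358 to 6782 in untreated TβRII-/- cells. These counts cover the whole transcript and do not separate the exons that Cre removes. The tubule label was met in part: Lrp2 and Aqp1, which encode megalin and aquaporin 1, were abundant in every group, whereas Slc22a6 was at 0 and Slc34a1 and Hnf4a near 0. Of 5 smooth muscle markers, Myocd was at 0 in every library and Myh11 and Des were each below 10 normalized counts on average in each group. Lmod1 averaged 4.66 and 31.0 in the untreated genotypes, whereas Smtn was abundant, with 10572 and 6482. The name of the set refers to the genes, and no cell type was assigned from it.

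Acta2 encodes smooth muscle α-actin and lies on chromosome 19 of GRCm38.p6 (34240336 to 34255585). Replicates 1, 2 and 3 had 456, 457 and 495 normalized counts in untreated TβRII flox/flox cells. The same cells had 179.6, 174 and 183 after H2O2. Untreated TβRII-/- cells had 2529.7, 2616 and 2341, and TβRII-/- cells given H2O2 had 586, 609 and 713. The 4 groups did not overlap, and untreated TβRII-/- cells stood far above the other groups. The log2 difference between genotypes, TβRII-/- over TβRII flox/flox, was 2.41 without treatment (standard error 0.07) and 1.83 with H2O2 (0.09), or 5.32-fold and 3.55-fold. Acta2 made up 0.440% ± 0.0103 of actin transcripts per kilobase in untreated TβRII flox/flox cells and 3.53% ± 0.186 in untreated TβRII-/- cells (SD, n = 3). With H2O2 the shares were 0.232% ± 0.0058 and 1.10% ± 0.137. Cytoplasmic β-actin (Actb) remained the main actin in every group, with 86.8% and 76.7% of the total in the untreated genotypes.

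Actg2, the γ-actin of visceral smooth muscle (chromosome 6, 83512909 to 83536251), was close to the limit of detection. It had 1, 0 and 5 raw counts in untreated TβRII flox/flox cells and 0, 0 and 2 after H2O2. In TβRII-/- cells it had 10, 17 and 15 raw counts untreated and 1, 2 and 3 after H2O2. Untreated TβRII-/- cells thus held 42 summed counts against 6 in untreated TβRII flox/flox cells, a ratio of 6.41 per effective library size (95% interval 2.71 to 18.5, from an exact binomial interval that covers counting error only). Actg2 entered the test through the untreated TβRII-/- libraries alone, so counts of members are also given without it. The muscle actin genes are alike in coding sequence. How any reads shared between Acta2, Actg2 and Acta1 were counted is not given in the sources used here, so the low counts of Actg2 are uncertain.

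Myl9 encodes the regulatory light chain of smooth muscle myosin (chromosome 2, 156775408 to 156781657). Its normalized counts were 123, 94.6 and 134 in untreated TβRII flox/flox cells and 54.8, 87.8 and 72.2 after H2O2. They were 291, 275 and 220.2 in untreated TβRII-/- cells and 128, 127 and 155 after H2O2. Myl9 was therefore higher in TβRII-/- cells in both media without overlap, by log2 differences of 1.15 (standard error 0.14) and 0.93 (0.17). Its levels over the 12 libraries ran closest to those of Acta2 among the other members (Pearson r of 0.96 in log2 CPM). This value describes 4 groups that share lines and media.

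**Figure D1:**
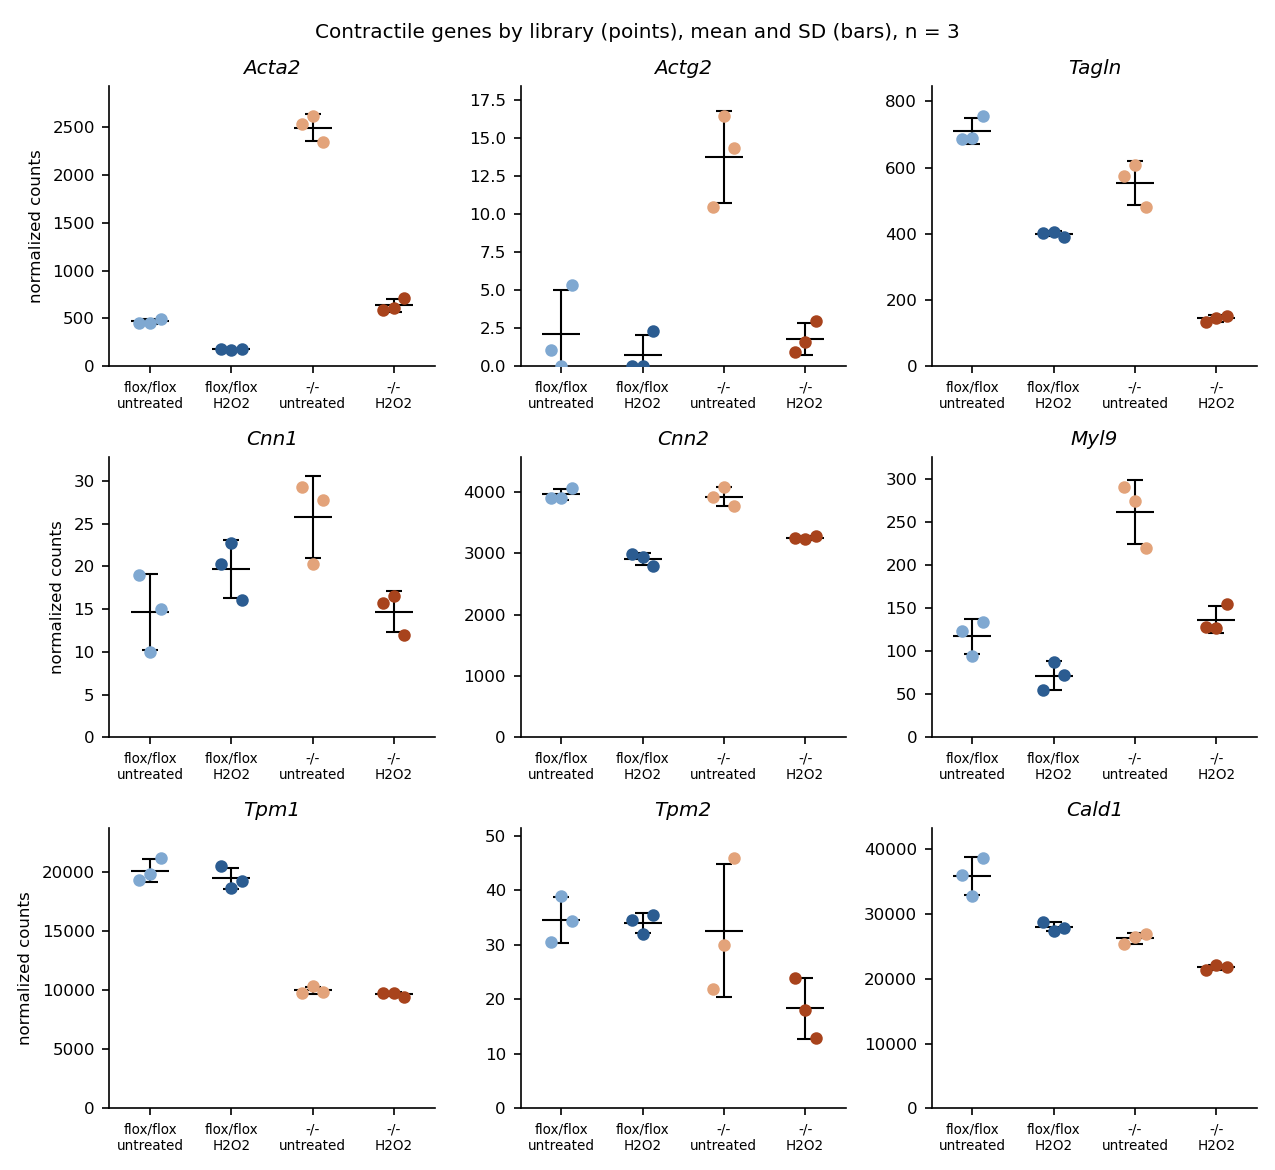
Each panel plots 1 gene, with normalized counts on a linear axis from 0 and the 4 groups along the x axis. Points are libraries, horizontal bars the mean and whiskers the SD (n = 3), cut off at 0. Acta2 in untreated TβRII-/- cells sits between 2341 and 2616, above all other libraries, while Tpm1 separates by genotype alone and Tagln is lowest in TβRII-/- cells given H2O2.

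Tagln encodes transgelin, also called SM22α, an actin-binding protein and an early smooth muscle marker (chromosome 9, 45929628 to 45936058). Unlike Acta2, it was lower in TβRII-/- cells. Normalized counts were 687, 691 and 756 in untreated TβRII flox/flox cells and 402, 407 and 392 after H2O2. They were 574, 609 and 481 in untreated TβRII-/- cells and 134, 147 and 153 after H2O2. The untreated genotypes differed by a log2 value of −0.36 (standard error 0.08), and the genotypes given H2O2 by −1.47 (0.10). None of the 4 groups overlapped, and their order from lowest to highest was TβRII-/- with H2O2, TβRII flox/flox with H2O2, TβRII-/- untreated and TβRII flox/flox untreated. Acta2 and Tagln, often read together as markers of 1 programme, thus differed between genotypes in opposite directions, and their levels had a Pearson r of 0.12 over the 12 libraries.

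Tpm1 and Cald1 were the most abundant members. Tpm1, which encodes α-tropomyosin (chromosome 9, 67022590 to 67049672), had 19315, 19879.8 and 21204 normalized counts in untreated TβRII flox/flox cells and 9779.8, 10362 and 9859 in untreated TβRII-/- cells. After H2O2 the values were 20499.9, 18698 and 19229 against 9786, 9737 and 9466. Genotype alone separated these libraries, with log2 differences of −1.01 in both media (standard error 0.06 in each). The 21 annotated Tpm1 transcripts gave nearly the same untreated genotype difference, from −1.02 to −0.95. They share reads, so these values are not independent. Per kilobase, Tpm1 made up 44.4% ± 0.549 of tropomyosin transcripts in untreated TβRII flox/flox cells and 29.9% ± 0.258 in untreated TβRII-/- cells (SD, n = 3), while the shares of Tpm4 were 32.3% and 41.0% and those of Tpm3 23.3% and 29.1%. Cald1, which encodes caldesmon, an inhibitor of actomyosin (chromosome 6, 34598495 to 34775469), had 36023, 32836 and 38670.1 normalized counts in untreated TβRII flox/flox cells and 25344, 26499 and 26873 in untreated TβRII-/- cells. With H2O2 it had 28788, 27439 and 27906 against 21426, 22196 and 21789.9. The genotype difference was −0.45 (standard error 0.07) untreated and −0.36 (0.07) with H2O2.

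The remaining members showed smaller or less certain differences. Cnn1, basic calponin of smooth muscle (chromosome 9, 22099221 to 22109221), ranged from 10.02 to 18.9 normalized counts in untreated TβRII flox/flox cells and from 20.3 to 29.3 in untreated TβRII-/- cells. With H2O2 the ranges were 16.04 to 22.7 and 11.9 to 16.5, and overlapped. Its log2 genotype difference was 0.80 (standard error 0.32) untreated and −0.41 (0.33) with H2O2. Cnn2, the calponin of non-muscle cells (chromosome 10, 79988600 to 79995400), ranged from 3910.3 to 4064 and from 3778 to 4082 in the untreated genotypes, a difference of −0.01 (0.06). With H2O2 it ranged from 2802 to 2995 in TβRII flox/flox cells and from 3227 to 3287 in TβRII-/- cells (0.16, standard error 0.06). Tpm2, β-tropomyosin (chromosome 4, 43513726 to 43523583), ranged from 30.5 to 38.9 in untreated TβRII flox/flox cells and from 22.0 to 45.9 in untreated TβRII-/- cells (−0.07, standard error 0.27). The ranges with H2O2 were 32.0 to 35.5 and 12.9 to 24.0 (−0.88, standard error 0.29).

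Levels can be compared between genes per kilobase of transcript. In untreated TβRII flox/flox cells the order was Tpm1 (8849.7 ± 426 normalized counts per kilobase, SD, n = 3), Cald1 (7393 ± 603), Cnn2 (1606 ± 36.0), Tagln (431 ± 23.5), Acta2 (168 ± 7.93), Myl9 (84.7 ± 14.8), Tpm2 (10.6 ± 1.29), Cnn1 (6.03 ± 1.84) and Actg2 (1.31 ± 1.74). In untreated TβRII-/- cells Cald1 (5412 ± 164) stood above Tpm1 (4396 ± 139), and Acta2 (895 ± 50.5) above Tagln (336 ± 40.2). The 3 lowest there, Cnn1 (10.6 ± 1.97), Tpm2 (9.98 ± 3.73) and Actg2 (8.40 ± 1.86), lay within each other's spread. The 9 genes therefore spanned abundant cytoskeletal transcripts and traces.

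In untreated cells 4 members were higher in TβRII-/- cells and 3 lower by edgeR's quasi-likelihood test at a Benjamini-Hochberg adjusted p under 0.05 (3 and 3 of 8 without Actg2). Of all 12971 genes tested, 64.7% were called, 33.3% as higher and 31.4% as lower. Acta2 was chosen on this difference, so the calls are counts only and nothing is read from them. The median log2 difference of the members was −0.01 against 0.01 for all genes tested. With H2O2, 3 members were higher and 4 lower (66.4% of all genes called, 35.1% as higher and 31.3% as lower), with a median of −0.36 against 0.02. At the limits of the study, an unadjusted p under 0.01 and a fold change of at least 1.5, 4 members passed untreated and 5 with H2O2, against 27.0% and 29.8% of all genes. Actg2 was among the 4. The untreated call of Cnn1 was lost in 6 of 13 alternatives, 4 of them fits without replicate 2 or 3 of untreated TβRII flox/flox cells or replicate 1 or 3 of untreated TβRII-/- cells (log2 differences of 0.59 to 0.80). With H2O2 the call of Cnn2 was lost without any 1 of the 3 TβRII flox/flox libraries (0.10 to 0.15), and that of Tpm2 without replicate 3 of TβRII-/- cells (−0.70).

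**Figure D2:**
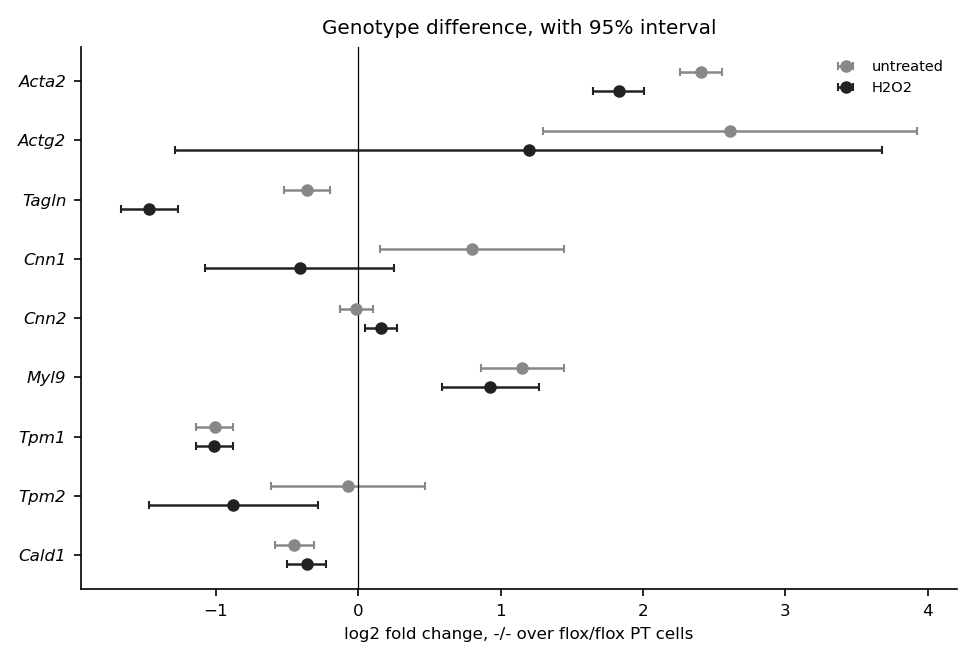
The x axis gives the log2 fold change of TβRII-/- over TβRII flox/flox cells, untreated in grey and with H2O2 in black, with 95% intervals from edgeR. Acta2 lies at 2.41 and 1.83 and Tpm1 at −1.01 in both media, and Tagln moves from −0.36 to −1.47. The points of Actg2 rest on few counts and are no bound.

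Positions and overlapping genes bear on what these differences measure. The 24 tested genes that flank Acta2, 12 on each side, had a median genotype difference of 0.41 above that of all genes in untreated cells and 0.27 with H2O2. For the other 8 members the flanking medians lay between −0.22 (Cald1) and 0.16 (Myl9) in untreated cells. Acta2 shares up to 301 exonic bases with Stambpl1 on the opposite strand in GENCODE M39. Stambpl1 had 39.0 ± 14.6 and 200.2 ± 15.9 normalized counts in the untreated genotypes (SD, n = 3), a log2 difference of 2.35. Its log2 changes with H2O2 were 0.15 in TβRII flox/flox and 0.00 in TβRII-/- cells, and Acta2 fell in both. Cnn1, with far fewer counts, shares up to 961 exonic bases with Elof1, which had 741 ± 86.6 and 912 ± 38.0 normalized counts in the untreated genotypes. The strand setting of the count is not given in the sources used here, so reads of such pairs cannot be told apart. Tagln, Myl9 and Tpm1 also overlap genes on the opposite strand, by at most 645, 169 and 370 bases.

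The effect of H2O2 in serum-free medium was not the stated reason for choosing the genes, and it was tested. Earlier results of these data were known when the genes were chosen. Of the 9 members, 5 fell in TβRII flox/flox cells and none rose, against 20.5% of all genes lower and 21.0% higher (41.6% called; edgeR, adjusted p under 0.05 over 12971 genes). These were 5 of the 8 members other than Actg2. In TβRII-/- cells 7 of the 8 members other than Actg2 fell and none rose (8 of 9 with Actg2, which passed the filter only because its untreated TβRII-/- libraries were high), against 19.1% of all genes lower and 20.5% higher (39.6% called). The libraries did not overlap for 5 members in TβRII flox/flox cells, all lower (of all genes 47.4% did not overlap, 23.3% as lower), and for 6 of the 8 members other than Actg2 in TβRII-/- cells, all lower (52.1% and 24.7%). At the limits of the study 3 members passed in TβRII flox/flox cells and 5 in TβRII-/- cells, against 7.56% and 7.77% of all genes. Actg2 was among the 5, through the same high untreated TβRII-/- libraries. The median log2 change of all 9 members, Actg2 included, was −0.44 in TβRII flox/flox cells against 0.01 for all genes. In TβRII-/- cells it was −0.83 against 0.02. The TβRII-/- comparison shares its untreated libraries with the comparison in which Acta2 was noticed, and Acta2 is among the 7 members that fell there.

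Acta2 fell by 1.39 on the log2 scale in TβRII flox/flox cells (standard error 0.09, edgeR adjusted p = 1.04e-13), from 469 ± 22.1 to 179 ± 4.96 normalized counts (SD, n = 3). In TβRII-/- cells it fell by 1.97 (0.07), from 2495 ± 141 to 636 ± 67.5. No p is given for that fall, because its high group is the untreated TβRII-/- libraries in which Acta2 was noticed. Tagln fell by 0.83 (0.08, edgeR adjusted p = 1.52e-09) and by 1.94 (0.09, edgeR adjusted p = 7.81e-17). Myl9 fell by 0.72 (0.17, edgeR adjusted p = 0.00131) and by 0.94 (0.14, edgeR adjusted p = 1.50e-06). These are the actin, the transgelin and the light chain usually read as contractile markers, and all fell in both lines. The abundant regulators changed less. Cnn2 fell by 0.44 (edgeR adjusted p = 1.86e-07) and 0.27 (edgeR adjusted p = 0.000266), and Cald1 by 0.35 (edgeR adjusted p = 9.69e-05) and 0.27 (edgeR adjusted p = 0.00221). For Tpm1, the log2 changes of −0.05 in both lines did not pass the test, with 95% intervals from −0.18 to 0.08 in each.

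Among the members with few counts, Actg2 had 42 summed counts untreated and 6 with H2O2 in TβRII-/- cells, a ratio of 7.75 (95% exact binomial interval 3.28 to 22.3, counting error only). No p is given for it, because the high group of this comparison is the one that let it pass the filter. Cnn1 fell by 0.79 in TβRII-/- cells (standard error 0.31, edgeR adjusted p = 0.0394). Tpm2 fell by 0.83 (0.29, edgeR adjusted p = 0.0223), although its libraries overlapped. The calls of Cnn1 and Tpm2 depended on single libraries. For Cnn1 the edgeR adjusted p was between 0.0596 and 0.133 when any 1 of the TβRII-/- libraries other than replicate 2 of the untreated group was left out. For Tpm2 it was 0.237 without replicate 3 of untreated TβRII-/- cells, where the log2 change was −0.50, and 0.0609 and 0.111 without replicates 2 and 3 of TβRII-/- cells given H2O2. In TβRII flox/flox cells Cnn1 and Tpm2 did not pass (edgeR adjusted p = 0.334 and 0.956), and the difference between the lines was not called for either of them.

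**Figure D3:**
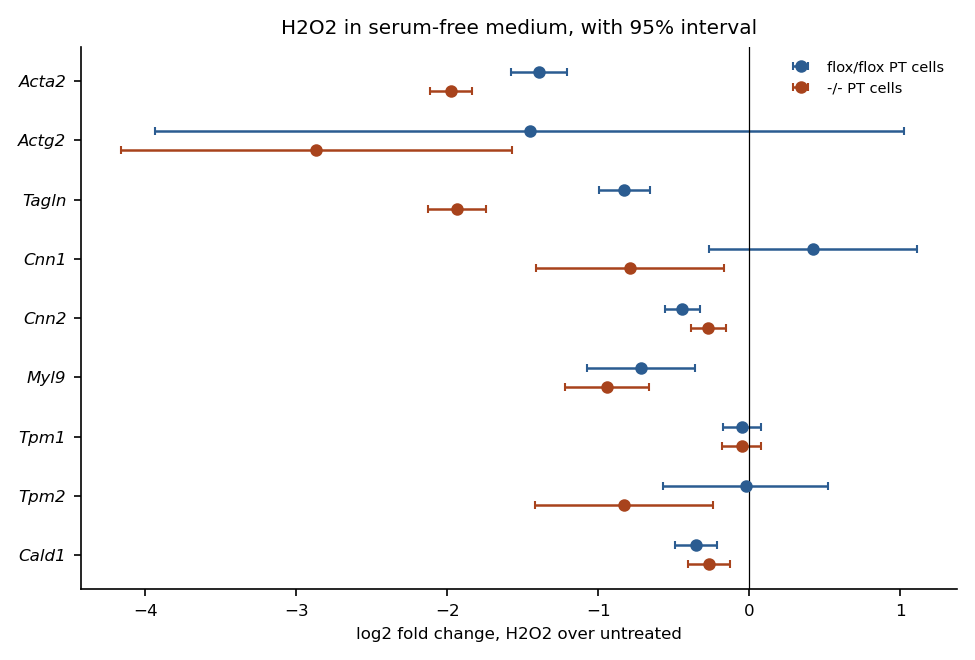
The x axis gives the log2 fold change of H2O2 in serum-free medium over untreated cells, with 95% intervals from edgeR, for TβRII flox/flox cells in blue and TβRII-/- cells in brown. Acta2 and Tagln lie further below 0 in TβRII-/- cells, at −1.97 and −1.94, than in TβRII flox/flox cells, at −1.39 and −0.83. Tpm1 lies at −0.05 in both, and the wide intervals of Actg2 rest on few counts.

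Whether the fall differed between genotypes was tested as an interaction, for which 10.2% of all genes were called, 6.28% with a lower and 3.90% with a higher value in TβRII-/- cells. Of the 9 members 2 were called, both lower (2 of 8 without Actg2), and 1 at the limits of the study (2.75% of all genes). Tagln fell more in TβRII-/- cells by 1.11 on the log2 scale (95% interval −1.37 to −0.85, edgeR adjusted p = 4.37e-07). Acta2, the other called member, fell more there by 0.58 (standard error 0.12). The value for Acta2 rests in part on the untreated TβRII-/- libraries in which its high level was first noticed. No p is therefore given for Acta2, and its call is a count from which nothing is read. Cnn1, with a difference of −1.21, did not pass (95% interval −2.14 to −0.28, edgeR adjusted p = 0.0879). For Tpm1 the difference was 0.00, with an interval from −0.18 to 0.18, and for Cald1 0.09 (−0.11 to 0.28). For Myl9 it was −0.23 (−0.68 to 0.23), for Cnn2 0.17 (0.01 to 0.34, edgeR adjusted p = 0.177) and for Tpm2 −0.81 (−1.61 to 0.00, edgeR adjusted p = 0.211).

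Other genes of the contractile apparatus were taken from lists chosen by role, and their counts stand beside 64.7% of all genes called between untreated genotypes, 41.6% with H2O2 in TβRII flox/flox cells and 39.6% in TβRII-/- cells. Of 12 smooth muscle markers 8 could be tested; between untreated genotypes 3 rose in TβRII-/- cells and 1 fell, with a median log2 difference of 0.12. Lmod1, an actin nucleator of smooth muscle, averaged 4.66 and 31.0 normalized counts (2.70). It was among the 3, but passed the expression filter only through TβRII-/- libraries, so no p is given for it. Mylk, the kinase of myosin light chains, rose from 343 to 618 (0.85, edgeR adjusted p = 6.31e-11), and Smtn, smoothelin, fell by 0.71 (edgeR adjusted p = 4.00e-11). Kcnmb1 and Pln were at 0 throughout, and Myh11, the smooth muscle myosin heavy chain, averaged 0.709 normalized counts in untreated TβRII flox/flox and 7.82 in untreated TβRII-/- cells without passing the expression filter. With H2O2, 1 marker rose and 2 fell in TβRII flox/flox cells, and 2 rose and 3 fell in TβRII-/- cells. Mylk rose in both (0.51 and 0.60, edgeR adjusted p = 1.11e-05 and 6.35e-08), opposite to the light chain gene Myl9.

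Of 15 actin, myosin, calponin, transgelin and tropomyosin paralogs, 13 were tested. In untreated TβRII-/- cells 3 rose and 4 fell (median −0.09), where 64.7% of all genes were called. With H2O2 none rose and 9 fell in TβRII flox/flox cells (median −0.48), against 20.5% of all genes lower. In TβRII-/- cells none rose and 8 fell (median −0.32), against 19.1%. Acta1, skeletal α-actin, averaged 7.65 and 37.6 normalized counts in the untreated genotypes (2.29), and the non-muscle heavy chain Myh14 differed by 4.18. Both were among the 3 that rose, but passed the expression filter only through TβRII-/- libraries, so no p is given for them. Actb fell by 0.77 (edgeR adjusted p = 4.78e-11), while the differences in Actg1 (0.03, edgeR adjusted p = 0.680) and Myh9 (−0.09, edgeR adjusted p = 0.244) did not pass. Actc1 was at 0 in every library.

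Among the transcriptional regulators, 2 rose and 5 fell of 10 tested in untreated TβRII-/- cells (median −0.27). Srf fell from 1382 to 1061 normalized counts (−0.38, edgeR adjusted p = 1.46e-06), Mrtfb rose by 0.49 (edgeR adjusted p = 3.71e-07) and Mrtfa, with −0.14, did not pass (edgeR adjusted p = 0.0577). Gata6, a factor of vascular smooth muscle, fell by 5.13 and Elk3, an SRF partner, by 0.81 (edgeR adjusted p = 2.97e-12 for Elk3). No p is given for Gata6, which passed the expression filter only through TβRII flox/flox libraries. Klf4, known to repress smooth muscle genes, rose by 1.21 (edgeR adjusted p = 8.60e-11). With H2O2, 3 regulators rose and 5 fell in TβRII flox/flox cells, Srf (−0.25, edgeR adjusted p = 0.00122) and Mrtfa (−0.37, edgeR adjusted p = 2.40e-05) among those that fell, and 3 rose and 1 fell in TβRII-/- cells.

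Of 14 focal adhesion and stress fibre genes, 1 rose and 10 fell in untreated TβRII-/- cells (median −0.53), where 33.3% of all genes were called as higher and 31.4% as lower. The genes with the largest called differences were Pdlim1 (−2.58), Pdlim7 (−1.02) and Zyx (−0.97; edgeR adjusted p between 1.25e-22 and 1.25e-15). With H2O2, 12 fell and 1 rose in TβRII flox/flox cells (20.5% of all genes lower), and 5 fell and 2 rose in TβRII-/- cells (19.1% of all genes lower). Of 6 TGF-β target genes 5 fell and 1 rose in untreated TβRII-/- cells (median −1.98), in which Pmepa1 fell by 3.63 (edgeR adjusted p = 5.32e-26). Tgfbi was the 1 that rose, with 3.91 and 41.4 normalized counts in the untreated genotypes (3.35). No p is given for Tgfbi, which passed the expression filter only through TβRII-/- libraries. With H2O2, 3 of the 6 fell in TβRII flox/flox cells, and 2 fell and 1 rose in TβRII-/- cells.

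**Figure D4:**
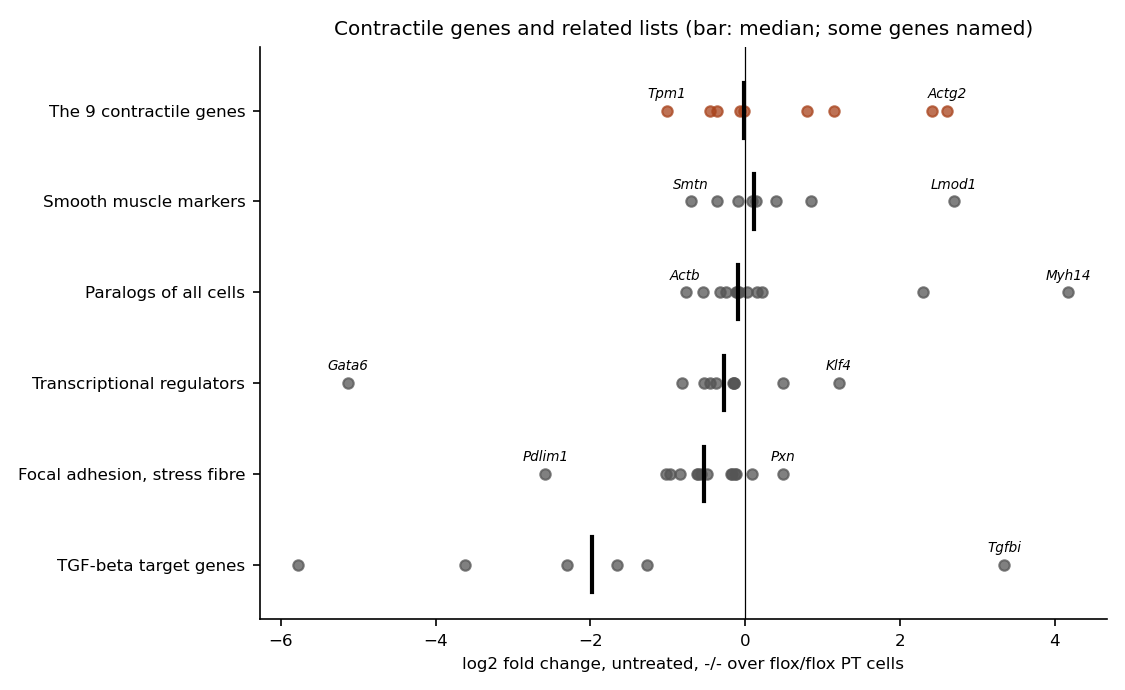
Each point is a tested gene, placed by its log2 fold change of untreated TβRII-/- over untreated TβRII flox/flox cells, with 1 row per list and the median as a bar; some genes at the ends of a row are named. The 9 contractile genes in brown spread from Tpm1 at −1.01 to Actg2, while TGF-β target genes have a median of −1.98 and focal adhesion genes one of −0.53.

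Markers of other cell types moved with genotype as well. Between untreated genotypes 64.7% of all genes tested were called, 33.3% as higher and 31.4% as lower in TβRII-/- cells, and the counts below stand beside these shares. Summed normalized counts of 9 fibroblast and pericyte markers ranged from 5585 to 6935 in untreated TβRII flox/flox cells and from 190.5 to 242 in untreated TβRII-/- cells, and from 2645 to 3066 and from 124 to 147 with H2O2. Of the 4 that could be tested, 3 fell and 1 rose between untreated genotypes. Most of this sum was Postn, which encodes periostin and averaged 6101 and 197 in the untreated genotypes; Lum was at 0, and Pdgfra, Col1a2 and Rgs5 near 0 in all groups. All 6 epithelial markers rose in untreated TβRII-/- cells, with summed counts of 17564 to 19092 in untreated TβRII flox/flox and 37232 to 40332 in untreated TβRII-/- cells. Among them Cdh1, E-cadherin, averaged 1.80 and 1111. Of 11 tubule markers, 7 were tested, of which 6 fell and none rose, with sums of 22030.1 to 28015 and 15064 to 16091. Only Kdr could be tested of 5 endothelial markers; it averaged 129 and 507 in the untreated genotypes, with Pecam1 and Cdh5 near 0. None of 5 leukocyte markers had enough counts to test. The part of these markers in the contractile gene values was not tested, and fewer cells of a type cannot be told apart from less RNA per cell.

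The genes whose pattern was most like that of Acta2 over the 12 libraries were Sorbs2, Oxct1, Aif1l, Plcxd2 and Anxa3, by Pearson r in log2 CPM among 12253 protein-coding genes tested. The r values ran from 0.99 (Anxa3) to 0.995 (Sorbs2) and describe libraries that share 2 lines and 2 media. Sorbs2 averaged 851 and 382 normalized counts in TβRII flox/flox cells without and with H2O2, and 3084 and 938 in TβRII-/- cells. Aif1l averaged 4464 and 2319, and 13878 and 6476. Both followed the group order of Acta2, with the untreated TβRII-/- libraries highest and the TβRII flox/flox libraries given H2O2 lowest.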

How the data were processed

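RNA of 12 libraries, 3 in each of 4 groups taken from the sample labels, was analysed. As far as the methods say, the authors trimmed stranded mRNA reads with fastp, aligned them with STAR to GRCm38.p6 and counted them with featureCounts. The deposited values are raw counts per transcript, on which a read can count more than once. Of 106332 transcripts, 104820 were matched to GENCODE M39, and the other 1512 held 1.22 to 1.28% of counts and were left out. The transcript with the highest total stood for each of 25514 genes.

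Counts were fitted in R 4.3.3 with edgeR 4.0.16 (TMM, filterByExpr, glmQLFit and glmQLFTest, a mean per group, all 12 libraries; 12971 genes) and adjusted by Benjamini-Hochberg over all genes tested. Calls were made at an adjusted p under 0.05. The test was tried on simulated counts. Alternatives were DESeq2 1.42.0, its size factors in edgeR, other filters, sums over transcripts, the limits of the study (unadjusted p under 0.01, 1.5-fold), only the groups compared, a replicate block, and each library left out. Correlations used log2 CPM with a prior of 0.5. The members and lists were chosen with earlier results of these data known. All 9 members were named, with fixed genes and, in each list, the 3 of at least 10 normalized counts with the largest called genotype difference; some genes and 1 list that meet this rule are not reported here. The p values measure only the spread between libraries. Coordinates and promoters are RefSeq GRCm38.p6; no protein sequences were used here.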

Additional observations from a re-analysis of the deposited data

Results flagged for a closer look

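By edgeR's interaction test on the effect of H2O2, 2 of the 9 members were called, both with a lower value in TβRII-/- cells. Of all genes tested, 10.2% were called and 6.28% had a lower value. The log2 change of Acta2 in TβRII-/- cells minus that in TβRII flox/flox cells was −0.58 (standard error 0.12). For Tagln the difference was −1.11 (0.13, edgeR adjusted p = 4.37e-07). Each comparison includes the untreated TβRII-/- libraries in which Acta2 was noticed, so no p is given for Acta2 and its call is a count only. No cause was tested.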

How the results depend on the processing

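No called value of a member changed direction under any alternative. Values that were not called could change sign. With H2O2 in TβRII flox/flox cells Actg2 ran from −4.21 to 0.33, and its interaction ran from −3.21 to 1.33. Between untreated genotypes Tpm2 ran from −0.40 to 0.14. The limits of the study (unadjusted p under 0.01 and a fold change of at least 1.5) left fewer calls: 4 of 9 members between untreated genotypes in place of 7, 3 in place of 5 with H2O2 in TβRII flox/flox cells, 5 in place of 8 in TβRII-/- cells, 1 in place of 2 for the interaction, where Acta2 was lost, and 22 in place of 40 of the other contractile pathway genes between untreated genotypes. The lost members had smaller fold changes or a p above 0.01, by construction of the limits. Actg2 was among the 4 and the 7 between untreated genotypes, and among the 5 and the 8 in TβRII-/- cells. Counts of members below include Actg2 where it was called. With single libraries left out, calls numbered 6 to 7 in both comparisons of genotypes, 5 throughout in TβRII flox/flox cells, 6 to 8 in TβRII-/- cells and 2 throughout for the interaction. The interaction of Acta2 stayed between −0.67 and −0.53 and that of Tagln between −1.20 and −1.03. Cnn1 with H2O2 in TβRII-/- cells was also lost with DESeq2 (adjusted p = 0.0737), without a filter on low counts (edgeR adjusted p = 0.0648) and with the replicate number as a block (edgeR adjusted p = 0.0501). Replicate numbers did not pair the samples: of 18 same-numbered pairs, 1 had a correlation of deviations over 0.1 (range −0.199 to 0.102). With the replicate block, called members numbered 7 between untreated genotypes, 7 with H2O2 in both genotypes, 5 with H2O2 in TβRII flox/flox, 7 in TβRII-/- cells, where Cnn1 was the call lost, and 2 for the interaction; calls over all genes went from 8387 to 8287 between untreated genotypes and from 1321 to 1202 for the interaction. Depth limits Actg2, Cnn1 and Tpm2, whose libraries held at most 48 raw counts.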

Other observations

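One Cald1 transcript went against its gene. Cald1-217, annotated as a retained intron, averaged 6.05 ± 3.64 normalized counts in untreated TβRII flox/flox cells and 39.4 ± 9.36 in untreated TβRII-/- cells (SD, n = 3), and 15.1 ± 6.91 and 57.2 ± 10.8 with H2O2, while the 11 Cald1 transcripts with at least 10% of the counts of the representative one were lower in untreated TβRII-/- cells (log2 −0.50 to −0.42). It held 0.111% of the counts of the representative transcript and was picked after its values were seen. No test was run on it.

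Kdr, the gene of VEGF receptor 2, fell with H2O2 in both genotypes, from 129 to 21.6 normalized counts in TβRII flox/flox cells and from 507 to 48.1 in TβRII-/- cells (edgeR adjusted p = 2.50e-12 and 2.48e-19). It was highest in untreated TβRII-/- cells, as was Acta2.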
